A study of Mus musculus with 3 samples.

Results

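The regions described here are the longest continuously tiled stretches of mouse autosomes on a methylated DNA immunoprecipitation (MeDIP) array. A tiled region was a run of probes whose starts lay at most 500 bp apart, and the longest class held those over 3000 bp from the first probe start to the last probe end on chromosomes 1 to 19. They were chosen by length alone and numbered 399 of the 28880 regions with at least 3 probes. They held 14953 probes, had a median length of 3395 bp (3003 to 15959 bp) and a median of 36 probes (20 to 136). They are called very long regions below and are set against the 2577 autosomal regions of 1800 to 3000 bp, called long regions.

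The bound (immunoprecipitated) DNA and the input DNA came from frontal cortex of naive male C57BL/6 mice 2 months old, with no allele or treatment and no second condition. Each of 3 arrays compared the bound fraction, in Cy5, with the input, in Cy3, of DNA pooled from 3 mice, and both fractions had passed through whole-genome amplification. The antibody, raised against 5-methylcytosine, does not bind hydroxymethylated DNA according to the labels. The labels call the arrays biological replicates, but only the titles number them 1 to 3 while every description says 1, and whether the pools held different mice is not given, so the spread over arrays may be technical. Frontal cortex is a mixture of neurons and glia, and a DNA array gives no marker with which to check the tissue. Levels are given as the log2 of the bound over the input signal. Their zero is each array's own median probe, which does not stand for absent methylation, and errors are SDs over 3 arrays. With 3 arrays, an exact sign-flip permutation test of a difference between classes cannot give a two-sided p below 0.25.

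Methylation of cytosine in mammals falls mainly on CpG dinucleotides, and most CpGs outside CpG islands are methylated. CpG islands, which many promoters contain, are usually free of methylation, and their edges can pass into methylated DNA over short distances. An antibody against 5-methylcytosine captures a fragment more readily the more methylated CpGs it holds, so a low ratio can come from unmethylated DNA or from DNA with few CpGs. Positions are on mouse build mm9. No genome sequence or gene annotation of that build was used here, so regions are given by position, without gene names, promoter classes or sequence.

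As a class, the very long regions carried less bound DNA than the median probe. Their mean was -0.22, -0.25 and -0.24 on arrays 1, 2 and 3 (-0.23 ± 0.01, n = 3). All 3 arrays placed the class mean below 0, and the arrays differed by less than 0.05. By limma's test over all 28880 regions with Benjamini-Hochberg adjustment at 0.05, 191 of the 399 were lower than the array median (47.9%) and 69 were higher (17.3%), while 139 had no call. Over all regions tested the corresponding shares were 38.1% lower and 27.9% higher, so the very long regions had more lower and fewer higher calls than the whole array. Calls of at least 2-fold were fewer in both directions, with 29 of the 399 lower (7.27%) and 13 higher (3.26%), against 8.13% lower and 8.84% higher over all regions. In 348 of 399 regions the 3 arrays gave one sign, and the arrays correlated across these regions with Pearson's r of 0.94 to 0.96. These are correlations across sites that share the array and its dyes, not across replicates.

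Both counts moved with the zero or the probe values chosen. With the most frequent probe value of each array as zero, 340 very long regions were lower and 12 higher. That value lay 0.63 to 0.81 above the median, so the level of every region on the array fell with it. With the series matrix values deposited by the authors, again centred on the median, 147 were lower and 107 higher. The class mean was -0.95 and -0.01 in these settings. With normexp background correction, also centred on the median, it was -0.08, with 204 regions lower and 80 higher. The corresponding shares over all regions are not given for these alternatives. Region means ran from -1.71 to 1.52, with a 5th percentile of -1.08, a median of -0.27 and a 95th percentile of 0.83. The median SD over arrays was 0.12 for a region, so the spread among regions was wider than that among arrays. Array 1 gave the value farthest from 0 in 199 regions and array 3 the value nearest to 0 in 194.

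**Figure D1:**
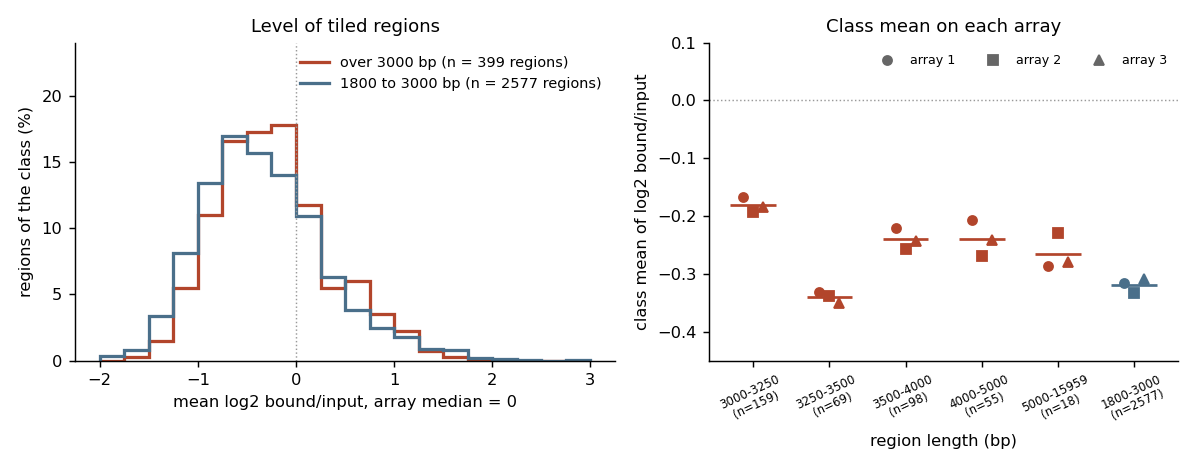
Left, share of regions (%) by mean log2 ratio of bound over input in steps of 0.25, for the 399 regions over 3000 bp and the 2577 regions of 1800 to 3000 bp. Right, class mean of the log2 ratio on each of 3 arrays (symbols) with their mean (line) by region length in bp. All class means lie below 0, and among the very long regions those of 3250 to 3500 bp lie lowest at -0.34, beside -0.32 for regions of 1800 to 3000 bp.

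Of the 399 regions, 7 (1.75%) were higher in every step of 500 bp that could be tested. The share was 2.95% in long regions, which meet this more easily, with a median of 4 such steps against 7. The highest very long region lay on chromosome 12 from 110829735 to 110833656, with 1.85, 1.48 and 1.22 on arrays 1, 2 and 3 over 40 probes (1.52 ± 0.32, limma adjusted p = 2.37e-06). All 7 of its testable steps were higher than the array median, from 0.65 ± 0.33 near its end to 2.01 ± 0.20 at 1000 to 1500 bp from its start, and none of its probes had bound DNA at background on all arrays. The next was on chromosome 2 from 164480248 to 164483282, with 1.55, 1.47 and 1.32 (1.44 ± 0.12), where a single high stretch covered 3000 bp. A second region of chromosome 2, from 122182810 to 122186539, was at 1.43 ± 0.30, and its steps peaked at 2.42 ± 0.14 at 1500 to 2000 bp.

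The other high regions had an uneven profile. On chromosome 19 from 4080432 to 4083684 the mean was 1.31 ± 0.22, with 2.71 ± 0.11 at 1500 to 2000 bp and 0.52 ± 0.40 at the end. On chromosome 8 from 107896023 to 107899434 it was 1.23 ± 0.26, and the first step, at 0.29 ± 0.21, had no call. On chromosome 7 from 108530157 to 108534088 it was 1.22 ± 0.25. In all 6 of these regions array 1 was the highest and array 3 the lowest. A call and one sign on all arrays were conditions for naming them, and their adjusted p was at most 7.15e-06 in limma.

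At the other extreme, 13 very long regions (3.26%) were lower than the array median in every testable step, against 232 of the 2577 long regions. The lowest was on chromosome 2 from 127410268 to 127413881, with -1.79, -1.81 and -1.54 on arrays 1, 2 and 3 over 37 probes (-1.71 ± 0.15, limma adjusted p = 4.38e-07). Its 7 steps ran from -2.24 ± 0.21 to -0.79 ± 0.36 and formed 1 low stretch of 3500 bp. Bound DNA did not rise above background on any array at 17 of its 37 probes, so the ratio there is an upper limit. Input was well above background on all arrays at 78.4% of its probes.

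Another low stretch of 3500 bp lay on chromosome 17 from 71198772 to 71202259, at -1.62, -1.36 and -1.47 (-1.48 ± 0.13), with steps of -2.26 ± 0.11 at the start and -0.69 ± 0.30 at 1500 to 2000 bp. Only 7 of its 40 probes had bound DNA at background on all arrays. It was followed by chromosome 19 from 6982610 to 6985790 (-1.40 ± 0.19), chromosome 12 from 39504742 to 39507920 (-1.37 ± 0.13), chromosome 19 from 10277335 to 10280593 (-1.32 ± 0.14) and chromosome 12 from 74038813 to 74042930 (-1.31 ± 0.24). The flattest of these over its tested steps was that on chromosome 19 from 10277335. Its 5 tested steps lay between -1.65 ± 0.22 and -1.10 ± 0.32, and 0 of 4 neighbouring pairs differed. They covered the first 2500 bp, and the rest of its 3259 bp had too few probes per step to be tested. The 6 lowest regions were likewise named only with a call and one sign on all arrays, and their adjusted p was at most 4.06e-06 in limma.

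Most very long regions were not of one level along their length. Each region was cut into steps of 500 bp from its first probe, and a step needed 3 probes to be tested. Of the 2753 steps tested, with a median of 7 per region, 1193 were lower than the array median (43.3%) and 644 higher (23.4%), against 34.4% lower and 26.5% higher over all 76462 steps of the array. A stretch was a run of neighbouring steps with the same call. The very long regions held 580 low stretches and 375 high ones, or 1.45 low and 0.94 high stretches per region.

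Low stretches numbered 0 in 59 regions, 1 in 133, 2 in 179 and 3 or more in 28. High stretches numbered 0 in 127 regions, 1 in 180, 2 in 81 and 3 in 11. Both kinds occurred together in 217 regions (54.4%), only low ones in 123 (30.8%), only high ones in 55 (13.8%) and no stretch in 4. A low stretch had a median length of 1000 bp and a high one of 500 bp, and the longest of either kind was 3500 bp. Low stretches of at least 2000 bp numbered 75 and high ones of that length 31.

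Bound DNA was dim in more of the low steps. At least 1 probe had bound DNA at background on all arrays in 960 of the 1193 low steps (80.5%), and in 38 of them no probe was above it, against 221 of the 644 high steps (34.3%) and 6 with no probe above it. A probe at background in both channels, which has no measured ratio, occurred in 25.7% of low and 25.9% of high steps. Input was about as bright in low as in high steps (median log2 signal 9.82 and 9.84) and dimmer in steps with no call (9.28). Over probes with both channels above background, with each array centred again on these probes, 143 of 391 regions had both low and high stretches. Only 613 pairs of neighbouring steps could then be tested, against 2236 with all probes. Of these, 67.2% differed, against 49.6% with all probes. With steps of 1000 bp 123 regions had both kinds of stretch. With the most frequent probe value as zero there were 113.

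Read from the lower to the higher coordinate, the order of the stretches took a few forms. A low part followed by a high part was found in 63 regions and the reverse in 58. A high part between low parts was found in 55 regions and a low part between high parts in 19, and 22 regions changed between low and high at least 3 times. In the 55 regions of the form low, high, low, the low parts averaged -1.04 and -1.01 and the high part 0.84. The high part had a median extent of 500 bp, and the centres of the flanking low parts lay a median of 2250 bp apart (1000 to 4000 bp). In the 19 of the opposite form the flanks averaged 1.07 and 0.87 and the low part -0.84, with a median extent of 1000 bp. These parts were picked by their level, so their means are a description only.

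**Figure D2:**
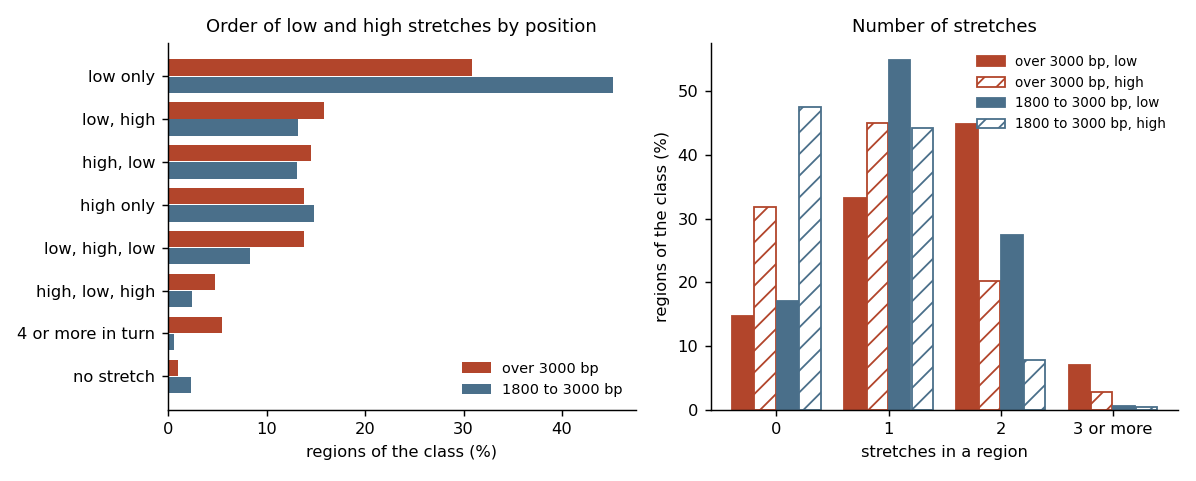
Left, share of regions (%) with each order of low and high stretches by position. Right, share of regions (%) with 0, 1, 2 or 3 or more low (filled) or high (hatched) stretches. Bars show the 399 regions over 3000 bp and the 2577 of 1800 to 3000 bp, and low only is the most frequent order in both, at 30.8% and 45.2%.

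The size of these changes was measured on arrays that had not been used to find them. For each array the highest and the lowest step of a region were chosen on the other arrays, and their difference was read on the array left out. This held-out difference had a median of 1.85 over the 399 regions (interquartile range 1.34 to 2.40), reached 2-fold in 341 of them (85.5%) and 4-fold in 159. In long regions its median was 1.49 and 73.4% reached 2-fold, but a region with more steps offers more from which to choose, so the classes were not compared by a test. It was -0.23 at its lowest and 4.97 at its highest.

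The largest was on chromosome 7 from 133726484 to 133730541, where a low stretch at 500 to 1500 bp had -1.94, -1.81 and -1.69 on arrays 1, 2 and 3 and a high stretch at 2000 to 4000 bp had 2.41, 2.27 and 1.95. The stretches were called on these same arrays, and the region was picked for its held-out difference, which was 4.73 to 5.22 on single arrays. Its highest step, at 3000 to 3500 bp, was at 3.31 ± 0.23 and the mean of the whole region was 0.81 ± 0.16, which was 0.10 with no call when arrays were centred on the mode.

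On chromosome 17 from 35837657 to 35842786, a region of 5130 bp, the mean was -0.17 ± 0.05 with no call, although all 9 neighbouring pairs of steps differed. A low step of -1.25 ± 0.36 at 500 to 1000 bp was followed by a high stretch of 1.51 ± 0.18 at 2000 to 3500 bp and a low one of -1.29 ± 0.31 at 3500 to 4500 bp. Input was well above background at 95.9% of its probes. On chromosome 2 from 166885721 to 166889707 the order was the same, with -0.59 ± 0.18, 1.91 ± 0.21 and -1.48 ± 0.02.

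On chromosome 7 from 52103146 to 52108115 low stretches of -1.22 ± 0.22 and -0.93 ± 0.26 were followed by a single high step of 1.88 ± 0.20 at 4500 to 5000 bp. The region on chromosome 14 from 51548716 to 51551745 held a high step of 1.34 ± 0.29 between low stretches of -1.92 ± 0.35 and -1.28 ± 0.35. The last 2 regions were both lower than the array median as a whole, at -0.63 ± 0.10 and -1.16 ± 0.04, but the series matrix values put the one on chromosome 7 at -0.22 with no call.

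**Figure D3:**
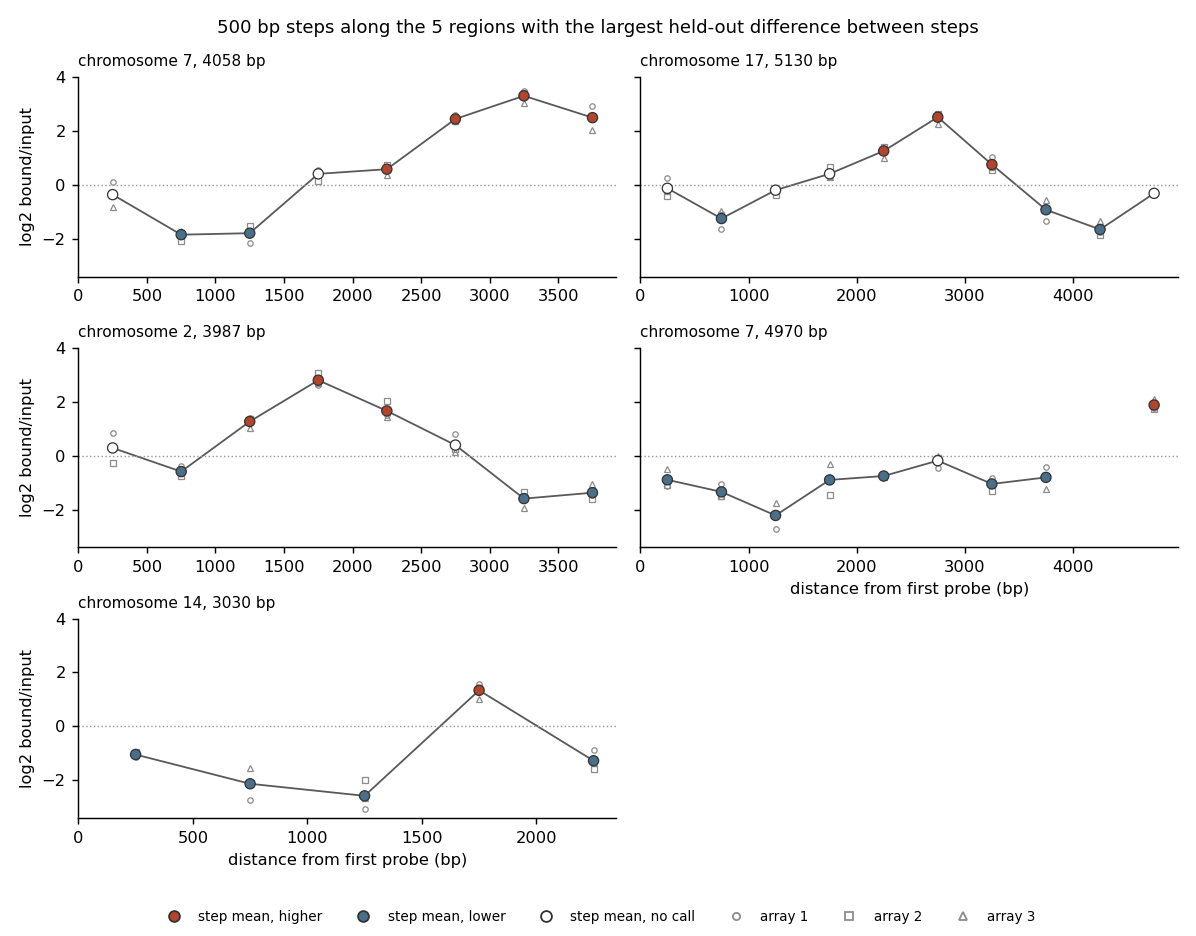
Log2 ratio of bound over input in steps of 500 bp against distance from the first probe (bp), for the 5 regions with the largest held-out difference between steps. Filled circles are means of 3 arrays coloured by call, small open symbols are single arrays, and breaks in the line are steps with under 3 probes. Each region passes between steps under -1 and steps over 1, and the highest step is at 3.31.

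The 5 longest regions were 5958 to 15959 bp long, and none had a call as a whole with all probes. Over probes with both channels above background, with each array centred again on the median of these probes, 4 of the 5 were lower. They were at -0.69 and -0.27 on chromosome 2, -0.29 on chromosome 12 and -0.54 on chromosome 5, and the region on chromosome 19 had no call. That filter selects probes on the bound signal itself, and the new centring moves the zero. The highest very long region went from 1.52 with only input above background to 1.10 in this setting. The part of the moved zero in these lower calls was not tested. In the same setting 225 of 391 very long regions were lower. With only input above background the levels were -0.53, -0.29, -0.37 and -0.40 in the same order, and that of -0.29 had no call. The longest by far, on chromosome 2 from 10392057 to 10408015, had -0.25, -0.24 and -0.25 over 136 probes, with a limma adjusted p of 0.078. Its 27 tested steps lay between -0.75 ± 0.28 and 0.85 ± 0.46, and 4 of 22 neighbouring pairs differed. Its calls were 6 short low stretches of at most 1000 bp and 1 high step, in which 2 of 6 probes had bound DNA above background on any array. Input was well above background at only 58.8% of its probes, and bound DNA was at background on all arrays at 42 of 136.

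The region next in length, on chromosome 2 from 10429618 to 10439950, had -0.26, -0.12 and -0.01 (-0.13 ± 0.12). Of its 16 neighbouring pairs of steps 2 differed. Its held-out difference was 0.06, from -0.86 to 1.09 on single arrays, so its highest and lowest steps were not shared by all arrays. Input was above background at 46.3% of its probes. A further pair of very long regions lies beside these, from 10385740 to 10390781 and from 10425550 to 10429149. They had no call either (-0.09 ± 0.10 and -0.04 ± 0.13), with input above background at 33.3% and 26.5% of probes.

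Low and high stretches both occurred in the other 3. On chromosome 19 from 26821605 to 26828264, a low stretch of -0.91 ± 0.14 at 1000 to 2500 bp was followed by a high stretch of 1.32 ± 0.34 at 4000 to 5500 bp. On chromosome 5 from 23928444 to 23934401, low stretches of -0.97 ± 0.35 and -0.90 ± 0.18 filled most of the first 4000 bp and a high stretch of 0.99 ± 0.25 followed at 4000 to 5000 bp. On chromosome 12 from 110952366 to 110958372, a high step of 0.71 ± 0.13 at 3000 to 3500 bp lay between low parts of -1.26 ± 0.24 at the start and -0.69 ± 0.10 at 4500 to 6000 bp.

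**Figure D4:**
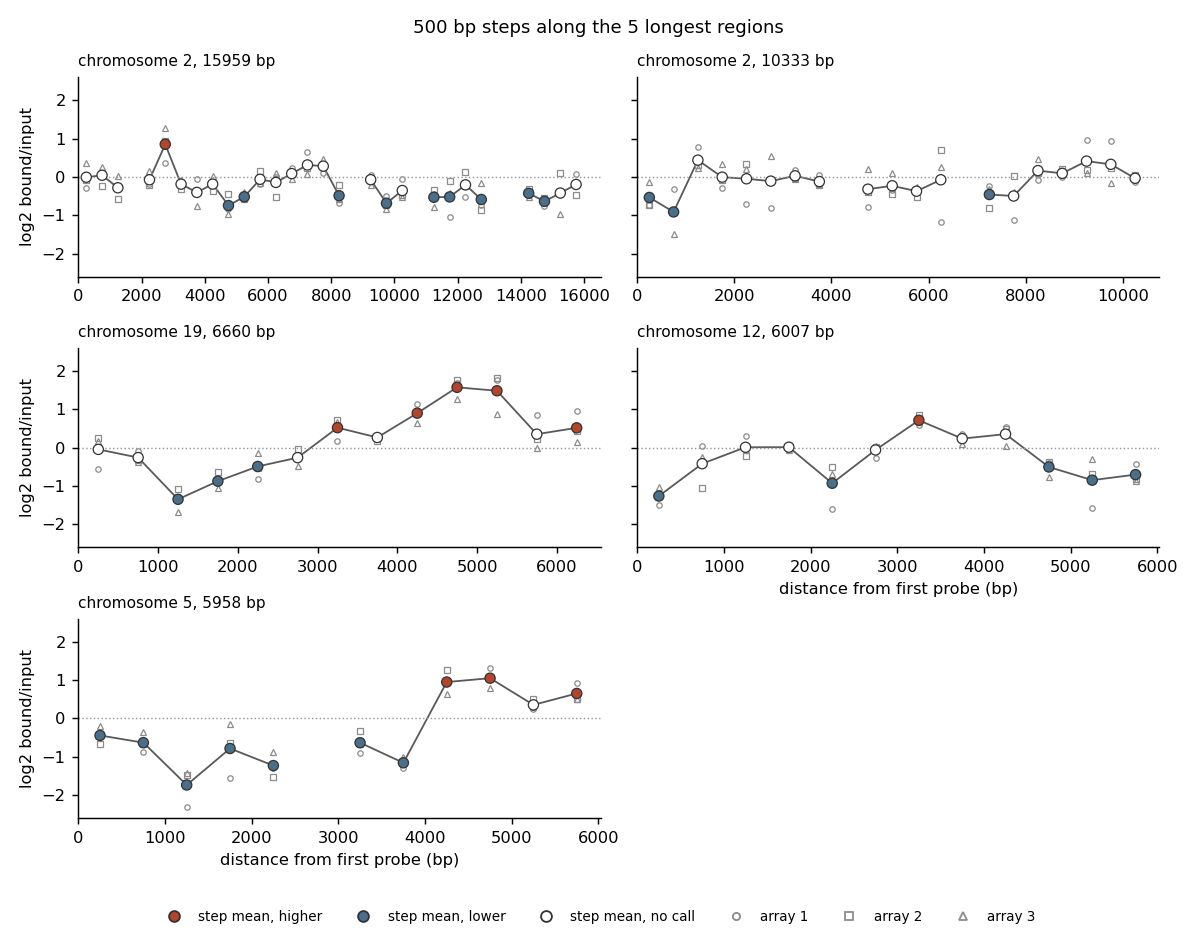
Log2 ratio of bound over input in steps of 500 bp against distance from the first probe (bp), for the 5 longest regions. Filled circles are means of 3 arrays coloured by call, small open symbols are single arrays, and breaks in the line are steps with under 3 probes. The steps of both regions of chromosome 2 lie between -0.91 and 0.85, and the regions of chromosomes 19 and 5 pass from low to high steps.

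The region with the most changes of direction for its length was on chromosome 17 from 36032072 to 36035587. Its mean was 0.04 ± 0.04 with no call, yet it held 6 stretches, low and high in turn, within 3516 bp. From the start they were -0.85 ± 0.22, 0.61 ± 0.29, -0.95 ± 0.08, 0.45 ± 0.14, -0.65 ± 0.08 and 1.20 ± 0.23. None changed sign between arrays, but they were called on these same arrays. Of the 6 neighbouring pairs of steps in this region, 5 differed. On chromosome 9 from 110017378 to 110021536, high steps of 0.62 ± 0.20 and 1.11 ± 0.16 lay among low ones of -0.66 ± 0.81, -1.82 ± 0.51 and -1.65 ± 0.16, of which the first was above 0 on array 2. The high step of 0.62 rests on dim signals, since 1 of its 5 probes had bound DNA above background on any array and its median log2 input was 5.77. At 20 of the 42 probes of the region bound DNA was at background on all arrays.

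Other regions with many stretches lay on chromosomes 2 and 3. That on chromosome 2 from 24908683 to 24912778 had high steps of 0.79 ± 0.23 and 0.51 ± 0.24 among 3 low stretches of -0.83 to -0.57. That on chromosome 3 from 89763258 to 89768572 had 5 low stretches of -1.37 to -0.59 and a high step of 0.75 ± 0.40, and was lower as a whole (-0.65 ± 0.09, limma adjusted p = 4.17e-04), though the series matrix values gave -0.23 and no call.

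Neighbouring steps were also compared directly, which does not depend on the zero of the array. In the very long regions 1109 of 2236 pairs of neighbouring steps differed (49.6%), and 635 by at least 2-fold. In long regions 4642 of 8726 pairs differed (53.2%), and 2838 by at least 2-fold. The share over all 46505 pairs of the array was 49.6%, so the very long regions had the share of the array as a whole. At least 1 such change was found in 380 of 399 regions (95.2%), against 87.5% of long regions, which have fewer pairs, and 20 regions (5.01%) changed at every pair, against 14.2% of long regions. The likeness of steps was lower at greater distance. Read between different arrays, the same step correlated with a mean Pearson's r of 0.89, steps 500 bp apart with 0.45, 1000 bp apart with 0.24, 2000 bp apart with 0.16 and 3000 bp apart with 0.10. These correlations run across steps that share regions and, when adjacent, can share sheared fragments.

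The level also varied with distance from the end of a region. Within 250 bp of the nearer end the probes of very long regions averaged -0.10 ± 0.01, and the mean was -0.35 ± 0.03 between 500 and 750 bp, then -0.17 ± 0.05 between 1250 and 1500 bp. Further in it was -0.28 ± 0.03 at 1500 to 1750 bp, over 305 of the regions. Long regions dipped as well, from -0.26 ± 0.02 within 250 bp to -0.43 ± 0.02 between 500 and 750 bp. Between 1250 and 1500 bp they were at -0.10 ± 0.08, over 500 of them. In single very long regions, however, no common direction was found between the outer 500 bp at both ends and the middle 500 bp. Of the 381 regions with enough probes, the outer part was above the middle in 120 (31.5%) and below it in 119 (31.2%), against 31.0% and 25.2% of all regions tested.

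**Figure D5:**
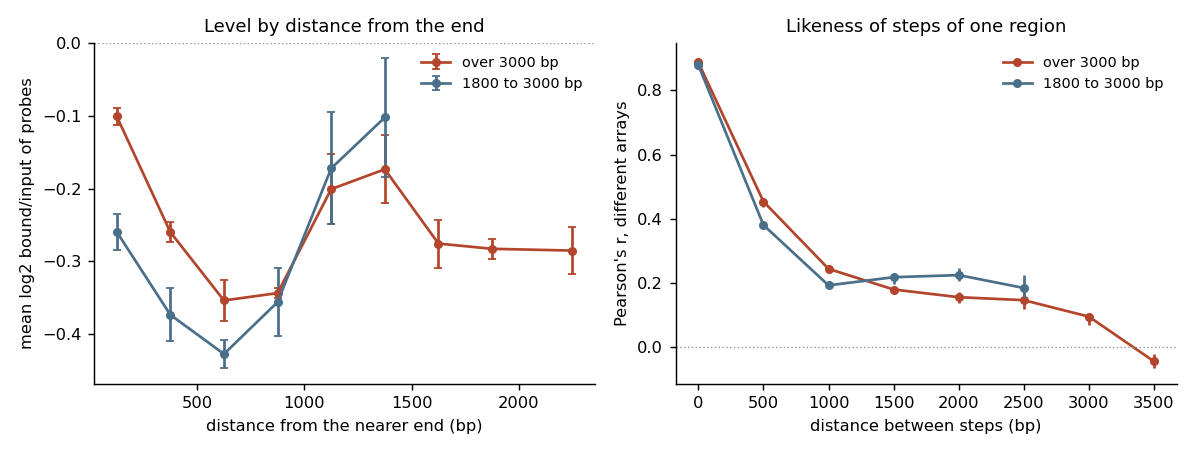
Left, mean log2 ratio of bound over input of probes by distance from the nearer end of a region (bp), with SD over 3 arrays. Right, Pearson's r between steps of one region by the distance between them (bp), as the mean and range over pairs of different arrays. The very long regions lie at -0.10 at their ends and at -0.35 at 500 to 750 bp, and the long ones at -0.26 and -0.43. In very long regions r falls to 0.10 at 3000 bp.

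Set against the 2577 long regions, the very long ones were slightly higher. Their mean of -0.23 ± 0.01 stood against -0.32 ± 0.01 in long regions, a difference of 0.08 ± 0.01, with 0.10, 0.09 and 0.07 on arrays 1, 2 and 3 (exact sign-flip permutation p = 0.25). Lower calls made up 47.9% of very long and 56.4% of long regions. The difference was 0.02 when only long regions of 2400 to 3000 bp were used. It was 0.03 with normexp background correction and 0.04 with loess. Very long regions of 3000 to 3250 bp averaged -0.18 ± 0.01 and those of 3250 to 3500 bp -0.34 ± 0.01, and over the 399 regions length and level had a Spearman's rho of -0.06. Probes of very long regions were also brighter in input by 0.13 ± 0.02 on the log2 scale (9.64 against 9.51), and bound DNA was at background on all arrays at 26.2% of them, against 29.9% in long regions. The part of this in the difference was not tested.

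The difference was larger in the outer parts of the regions than in the middle. Outer minus middle was 0.03 ± 0.03 in very long and -0.07 ± 0.09 in long regions, a difference of 0.17, 0.06 and 0.07 on arrays 1, 2 and 3 (exact sign-flip permutation p = 0.25), which averaged 0.10. It was 0.04 with normexp, 0.03 with dim probes of either channel left out, and 0.07 without array 1. The outer 500 bp averaged -0.17 ± 0.001 in very long and -0.30 ± 0.03 in long regions, a difference of 0.13 ± 0.03 that was above 0 on all arrays (exact sign-flip permutation p = 0.25). The middle averaged -0.20 ± 0.03 and -0.23 ± 0.07, and its difference of 0.03 ± 0.03 changed sign between arrays (exact sign-flip permutation p = 0.5).

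Per 1000 bp, very long regions had fewer low stretches than long ones. Counted on each array with steps beyond 0.5 either way, there were 0.40 ± 0.01 in very long and 0.49 ± 0.01 in long regions, a difference of -0.09 ± 0.01 found on all arrays (exact sign-flip permutation p = 0.25). With dim probes of either channel left out and the arrays centred again it was -0.01. A stretch ends with its region and counts as 1 whatever its length, so counts per 1000 bp depend on region length. The part of this in the difference was not tested. High stretches numbered 0.26 ± 0.04 per 1000 bp in very long and 0.27 ± 0.03 in long regions, and their difference of -0.007 turned positive in 8 of the other settings tried. Neighbouring steps differed by 0.79 ± 0.09 on average in very long and 0.86 ± 0.09 in long regions, a difference of -0.06 ± 0.01 (exact sign-flip permutation p = 0.25), which was -0.02 with normexp.

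Counted per region, the longer ones held more stretches. Low and high stretches occurred together in 54.4% of very long and 37.7% of long regions, and 2 or more low stretches in 51.9% and 28.0%. Among the very long regions the share with both was 47.8% for lengths up to 3250 bp, 53.6% from there to 3500 bp, 58.2% between 4000 and 5000 bp, and 83.3% in the 18 regions over 5000 bp. A longer region has more steps and so more chances of a call, and these shares were not tested. At the limit itself, the regions just over it, of 3003 to 3006 bp, were at -0.86 ± 0.30 (chromosome 7, 68826304 to 68829306, where 28 of 36 probes had bound DNA at background on all arrays and the level was -1.80 over probes with input above background), -0.12 ± 0.16 (chromosome 12, 16805768 to 16808773) and -0.08 ± 0.25 (chromosome 9, 50909928 to 50912933). Those just under it, of 2997 to 3000 bp, were at -0.59 ± 0.17 (chromosome 3, 133901694 to 133904693), 0.24 ± 0.22 (chromosome 2, 125331928 to 125334924) and -0.34 ± 0.07 (chromosome 17, 34740013 to 34743009).

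Very long regions were spread over all 19 autosomes and made up 1.44% of autosomal regions, from 0.77% on chromosome 16 to 2.20% on chromosome 12. Chromosome 2 held 49 of them, chromosome 11 held 44 and chromosome 7 held 36. The highest mean per chromosome was 0.02 ± 0.03 on chromosome 4 (24 regions) and the lowest -0.52 ± 0.04 on chromosome 16 (7 regions), and differences between chromosomes were not tested. Chromosomes 5 and 13 had no higher call among 23 and 13 regions, against 17.3% of all very long regions. These chromosomes were picked after their values were seen, and the share over all their regions is not given. Another tiled region began within 5000 bp of 132 of the 399 (33.1%), against 27.0% of long regions.

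Very long regions lay next to each other in a few places, which were picked after their values were seen. The longest run held 7 of them on chromosome 12 between 110946159 and 110982635, with gaps of 560 to 3428 bp. They averaged 0.23, 0.19 and 0.08 on arrays 1, 2 and 3, and single regions ran from -0.30 to 0.82, with 2 higher, 1 lower and 4 with no call. Also on chromosome 12, the highest region of all, from 110829735, lay 2726 bp from another very long region, from 110822778 to 110827008, which was higher as well (0.84 ± 0.24). The highest of the 7, from 110960228 to 110963258, was at 0.82 ± 0.09, and the lowest, from 110975498 to 110978871, at -0.30 ± 0.13.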

How the data were processed

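Per the file headers, Agilent Feature Extraction 10.7.3.1 gave the deposited intensities of 420288 spots per array, on a design placed on mm9 (NCBI37). Background subtraction, spatial detrending and linear dye normalisation had been applied to them. The authors' value table, also log2 bound over input as deposited, comes with no stated normalisation and served as an alternative.

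The log2 ratio of red (bound) over green (input) processed signal was taken per spot. Control spots (4474) and outlier flags were left out, probes spotted more than once were averaged, and each array was centred on its median. Of 409606 probes, 9 on unplaced sequence were left out. Regions, steps, neighbouring pairs and outer minus middle parts were each fitted over the whole array with limma 3.58.1 in R 4.3.3, and class differences with the exact sign-flip test. The number of arrays limits the precision. The scripts were tested on simulated data. Outer and middle parts needed 2 probes each and a region over 1500 bp.

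Named regions were the 6 highest and 6 lowest with a call and one sign on all arrays, the 5 longest, the 5 with most stretches, the 5 with the largest held-out difference, and 3 on each side of 3000 bp. The class of regions, these rules and the alternatives were chosen with earlier results of these data known. Background correction, normalisation, zero point, filters, step size, region definition and leaving out each array were varied. Where only probes with both channels above background were kept, each array was centred again on their median. This moved the zero, so calls against the median in that setting are not on the scale of the other settings. Spot medians replaced the spot means planned for normexp.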

Additional observations from a re-analysis of the deposited data

How the results depend on the processing

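No paired analysis was possible because all arrays form 1 group. Of the 399 regions, 69 higher and 191 lower became 12 and 340 with arrays centred on the mode, and 13 and 29 at 2-fold or more. The series matrix gave 107 higher. Leaving out 1 array gave 59 to 68 higher and 153 to 191 lower. With probe starts at most 300 bp apart only 190 regions exceeded 3000 bp, and 25 of these were higher and 99 lower. Apart from the 2-fold calls, shares over all regions are not given for these settings. Very long minus long regions (0.084) was 0.034 with normexp, 0.043 with loess, 0.110 with input above background, 0.041 with starts at most 300 bp apart, 0.104 with medians of probes and 0.020 against regions of 2400 to 3000 bp. It was 0.079 to 0.092 with 1 array left out, and 0.086 without the members over 5000 bp, an alternative added after the data were seen.

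Fewer low stretches per 1000 bp (-0.090) kept its sign: -0.035 with normexp, -0.073 with input above background, -0.014 with both channels above background, -0.074 with steps of 250 bp, -0.060 with steps begun 250 bp later, -0.066 at a threshold of 1 and -0.112 where steps with no call did not end a stretch. High stretches per 1000 bp (-0.0074) reversed to 0.0125 with normexp, 0.0101 with the mode, 0.0044 with input and 0.0070 with both channels above background, 0.0104 with steps of 250 bp, 8.19e-05 with 1000 bp, 0.0131 with the later start and 0.0109 at a threshold of 1, and was -0.029 with loess and -0.022 where steps with no call did not end a stretch. Regions with both kinds (217) numbered 113 with the mode, 143 of 391 with both channels above background and 123 with steps of 1000 bp. Differing neighbours (1109 of 2236, 49.6%) numbered 412 of 613 (67.2%) with both channels above background. They numbered 726 of 1868 (38.9%) with steps of 250 bp and 604 of 1133 (53.3%) with 1000 bp, so fewer pairs were tested in each.

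The mean difference between neighbours (-0.064) was -0.103 with both channels above background, -0.020 with normexp, -0.044 with the series matrix, -0.078 with loess, -0.030 with steps of 250 bp, -0.040 with 1000 bp and -0.050 with the later start. The outer part was above the middle in 79 regions with both channels above background (120 otherwise), and outer minus middle, very long minus long (0.103), was 0.037 with normexp, 0.032 with that filter and 0.068 to 0.123 with 1 array left out. Named regions reversed only with the mode: chromosome 19 from 26821605 (-0.57), chromosome 17 from 36032072 (-0.68) and chromosome 2 from 166885721 (-0.38). The last also lost its call without replicate 1 (0.28) or 2 (0.34), and chromosome 9 from 110017378 without replicate 1 (-0.30). Calls were also lost with the series matrix by chromosome 3 from 89763258 (-0.23) and chromosome 7 from 52103146 (-0.22), and with the mode by chromosome 7 from 133726484 (0.10). Calls were gained by the longest region, chromosome 2 from 10392057, with normexp (-0.17), loess (-0.26), the mode (-0.96), input (-0.53) or both channels above background (-0.69). Chromosomes 12 from 110952366 and 5 from 23928444 gained one in 4 settings each. The causes were not tested. Dim probes limit low values to bounds.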
